A study of Mus musculus with 16 samples.

Results

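Metalloproteinases and their tissue inhibitors were followed on two-colour microarrays of mouse heart ventricle. The genes were Timp1, Timp2, Timp3 and Timp4, the matrix metalloproteinase genes Mmp2, Mmp3, Mmp9 and Mmp14, and the genes Adamts1 and Adamts2. Probes were chosen by the gene name in the array files or a synonym of it, which gave 18 probes of 10 genes among 41174 non-control probes. Of these 18 probes, 13 passed a filter on dim probes, as did 14684 of all probes. The other 5 were not well above background in the heart on any of the 16 arrays. They were both probes of Mmp9, 1 of Mmp14 and 2 of Adamts2.

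The study compared 4 groups of 129Sv mice with 4 biological replicates each, all 1 week after surgery: CHIP-/- mice after trans-aortic banding (TAB), CHIP-/- mice after sham surgery, wild-type mice after TAB and wild-type mice after sham surgery. TAB narrows the aorta and so loads the left ventricle with pressure. CHIP, encoded by Stub1, is a co-chaperone and ubiquitin ligase that marks misfolded proteins for degradation. The sources used here do not give the cells in which Stub1 was disrupted or the ages of the mice. Values are log2 ratios of ventricle RNA to a common reference RNA, made from whole neonatal mice of mixed 129Sv and C57BL/6 background. A level is therefore set against other samples of the same probe and never against another gene.

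Matrix metalloproteinases are zinc enzymes that cleave collagens, other matrix proteins and the precursors of other proteases. Tissue inhibitors of metalloproteinases (TIMPs) block them by binding to the active site. Timp4 is known for high expression in adult heart, and Timp1 is known to be induced by growth factors and cytokines in injured tissue. ADAMTS proteases are secreted enzymes that process procollagens and proteoglycans and bind to the matrix through thrombospondin repeats.

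The promoter windows of Timp1 and Timp4 are shown because these inhibitors moved in opposite directions with TAB in CHIP-/- ventricles. Both are RefSeq sequences of build GRCm38.p6 that run from 250 bases before the gene start to 50 bases after it. The Timp1 window is chrX:20869916-20870215 on the plus strand and the Timp4 window is chr6:115252156-115252455 on the minus strand, each written 5′ to 3′ on the strand of its gene.
Timp1: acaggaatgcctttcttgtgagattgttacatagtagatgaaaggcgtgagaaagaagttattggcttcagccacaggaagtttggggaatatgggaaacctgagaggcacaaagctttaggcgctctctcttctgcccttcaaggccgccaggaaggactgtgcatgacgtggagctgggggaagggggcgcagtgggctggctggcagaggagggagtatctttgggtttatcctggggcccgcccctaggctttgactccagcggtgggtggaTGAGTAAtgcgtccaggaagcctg
Timp4: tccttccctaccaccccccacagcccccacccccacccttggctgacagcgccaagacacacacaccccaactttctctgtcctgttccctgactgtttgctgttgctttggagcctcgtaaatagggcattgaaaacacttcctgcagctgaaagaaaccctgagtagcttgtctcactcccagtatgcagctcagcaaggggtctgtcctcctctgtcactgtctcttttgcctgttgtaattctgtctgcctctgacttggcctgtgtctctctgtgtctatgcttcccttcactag
The capitals mark TGAGTAA, the variant of the binding motif of activator protein 1 (AP-1) known from the Timp1 promoter, which starts 26 bases after the gene start. AP-1 is a dimer of Fos and Jun family proteins. On both strands, TGAGTAA occurs in 2.68% of 32851 such windows and the general motif TGANTCA in 7.81%. The Timp4 window held neither. Of the 8 members with a window (all but Mmp2 and Mmp9), Mmp3 alone held TGANTCA, 46 bases before the gene start. The match is a description of letters, and binding was not measured.

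Several measured features of the arrays bear on all results. The 4 arrays of a group shared 1 slide and no slide held a second group, which means that slide effects and group effects cannot be told apart here. Stub1 ratios lay between -1.47 and -1.17 on the CHIP-/- arrays and between -0.41 and 0.43 on the wild-type arrays, without overlap. The sources used here do not say where its probe lies relative to the disrupted part of the gene. Transcripts of the Y-linked genes Eif2s3y and Ddx3y passed the background flag for CHIP-/- sham replicates 2 and 4 and wild-type sham replicate 4, 3 arrays in all, and for none of the 8 TAB arrays. A further 3 sham arrays (CHIP-/- replicate 1 and wild-type replicates 1 and 3) had high Myl7, which encodes the myosin light chain of atria. Xist, the only sex marker past the filter, went down to -3.27 in CHIP-/- sham and -3.20 in wild-type sham. On the TAB arrays it lay between -0.32 and 0.13 in CHIP-/- and between -0.35 and 0.16 in wild type. Sex thus cannot be fully told apart from TAB against sham, and its part was not tested. Of 10 ventricular cardiomyocyte markers, 9 passed the filter and Myl2 did not. The filter also requires a value on at least 15 arrays after outlier-marked spots are left out, so a probe that fails it need not be dim.

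Timp1 was higher after TAB in both genotypes, and more so in CHIP-/- ventricles. Its brightest probe (A_52_P87713) had log2 ratios of 2.38, 1.77, 2.67 and 1.81 after TAB in CHIP-/-, against -0.85, -0.80, -0.50 and -0.78 after sham in CHIP-/-. In wild type the ratios were 0.42, 1.18, 0.70 and 1.43 after TAB, against -0.78, -0.94, -0.85 and -0.03 after sham. The TAB and sham groups did not overlap in either genotype, and every CHIP-/- TAB array lay above every wild-type TAB array. The rise was 2.89 in CHIP-/- (SE 0.21, 7.41-fold, adjusted p = 1.6e-10) and 1.58 in wild type (SE 0.21, 2.99-fold, adjusted p = 2.9e-06). All adjusted p values are from limma's linear model, with Benjamini-Hochberg adjustment over the 14684 probes of a comparison, and a probe is said to rise or fall where it is below 0.05. After sham the genotypes differed by -0.08 (SE 0.21, adjusted p = 0.97). After TAB, CHIP-/- exceeded wild type by 1.23 (SE 0.21, adjusted p = 0.00038).

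The unprocessed heart signals of this Timp1 probe were 769, 414, 1070 and 510 after TAB in CHIP-/-, against 102.1 to 125.2 after sham in CHIP-/-. In wild type they were 182.2 to 377.7 after TAB, against 87.4 to 155.2 after sham. The reference signals lay between 250.2 and 306.8 on all 16 arrays and did not separate the groups.

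The interaction, by how much the response to TAB in CHIP-/- exceeded the wild-type response, was 1.31 for this Timp1 probe (SE 0.29, adjusted p = 0.011). It was 1.10 to 1.47 without each array in turn (adjusted p = 0.0033 to 0.032). The call ended without the 3 sham arrays with Y-linked transcripts, at 1.05 (adjusted p = 0.13), and with the Feature Extraction log ratio, at 1.36 (adjusted p = 0.068), and the series table, at 1.37 (adjusted p = 0.0615).

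The other Timp1 probes were dimmer and gave smaller differences with normexp background correction. They passed the filter only through TAB arrays, where they were high, so their differences and p values are descriptions. Probe A_51_P512384 had ratios of 1.29, 0.90, 1.44 and 0.82 after TAB in CHIP-/-, against -0.37, -0.10, -0.12 and -0.24 after sham in CHIP-/-. In wild type it had 0.20, 0.23, 0.39 and 0.87 after TAB, against -0.30, -0.46, -0.25 and -0.12 after sham. Its rise was 1.32 in CHIP-/- (SE 0.14, adjusted p = 7.2e-08) and 0.71 in wild type (SE 0.14, adjusted p = 0.00049). Probe A_51_P512379 rose by 1.39 in CHIP-/- (SE 0.20, adjusted p = 3.6e-06) and by 0.58 in wild type (SE 0.20, adjusted p = 0.025). Its wild-type TAB and sham groups overlapped. The wild-type call of A_51_P512379 ended without wild-type TAB replicate 2 or 4 or wild-type sham replicate 1 or 3, at 0.45 to 0.57 (adjusted p = 0.053 to 0.11), and at 0.44 without the 3 sham arrays with high Myl7. For both dimmer probes CHIP-/- exceeded wild type after TAB, by 0.69 and 0.79 (adjusted p = 0.0025 and 0.011), with overlapping groups. The 0.79 was no longer called without CHIP-/- TAB replicate 3 or wild-type TAB replicate 1, at 0.58 to 0.65. Their interactions did not pass (0.62 and 0.81, adjusted p = 0.087 and 0.11), but passed at 0.77 and 0.95 without wild-type TAB replicate 4 and at 0.71 and 1.01 without CHIP-/- TAB replicate 4.

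On these probes no sham array was well above background, so their folds are lower bounds, open to dye bias. On each sham array they were taken against the dimmest signal well above background or the probe's own signal, whichever was larger. The bounds in the heart channel were at least 2.42-fold in CHIP-/- and at least 1.54-fold in wild type for A_51_P512384. They were at least 2.09-fold in CHIP-/- and at least 1.36-fold in wild type for A_51_P512379, which only 2 of 4 wild-type TAB arrays measured. Across the 16 arrays the 3 Timp1 probes correlated with each other at 0.93 to 0.97, so their order of arrays was much alike while the size of the change was not. These correlations share the 4 group means and the arrays. The size differed between the sources of the ratio. With no background correction the rise of A_51_P512384 was 1.59 in CHIP-/- and 0.88 in wild type, and that of A_51_P512379 was 1.64 in CHIP-/- and 0.65 in wild type. With the background-subtracted and dye-normalized log ratio that Feature Extraction deposited, the rise was 3.90 in CHIP-/- and 2.50 in wild type for A_51_P512384, and 4.56 in CHIP-/- and 2.00 in wild type for A_51_P512379. For A_52_P87713 it was then 3.52 in CHIP-/- and 2.16 in wild type, and all 6 values were called. The differences between genotypes after TAB were not called for the dimmer probes with that ratio (adjusted p = 0.12 and 0.052), but were for the bright one (1.33, adjusted p = 0.006). With the series table the difference of A_51_P512379 after TAB was called (2.13, adjusted p = 0.0471).

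Timp4, the inhibitor known for its expression in heart, went opposite ways with TAB in the genotypes. Its only probe had ratios of 1.03, 0.94, 0.80 and 1.14 after TAB in CHIP-/-, against 1.83, 2.08, 1.78 and 2.04 after sham in CHIP-/-. The wild-type ratios were 2.15, 2.32, 1.94 and 2.09 after TAB, against 1.23, 1.51, 1.78 and 1.24 after sham. All 4 CHIP-/- TAB arrays lay below the other 12 arrays. Timp4 fell by 0.96 in CHIP-/- (SE 0.11, adjusted p = 3.4e-07) and rose by 0.68 in wild type (SE 0.11, 1.61-fold, adjusted p = 6.5e-05). After TAB the CHIP-/- level was below the wild-type level by a log2 difference of -1.15 (SE 0.11, adjusted p = 1.8e-06). The interaction was -1.64 (SE 0.16, adjusted p = 9.2e-06) and stayed between -1.75 and -1.57 without each array in turn, with adjusted p up to 6.1e-05. Without the 3 sham arrays with Y-linked transcripts it was -1.45 (adjusted p = 0.00092).

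The order of the Timp4 group means was wild-type TAB (2.13 ± 0.15, SD, n = 4), CHIP-/- sham (1.93 ± 0.15, n = 4), wild-type sham (1.44 ± 0.26, n = 4) and CHIP-/- TAB (0.98 ± 0.14, n = 4). The first pair overlapped. After sham the CHIP-/- arrays all lay above the wild-type arrays, although the nearest values both round to 1.78. The difference of 0.49 (SE 0.11) did not pass (adjusted p = 0.10). It passed at 0.60 without wild-type sham replicate 3 (adjusted p = 0.019) and at 0.49 with median centring (adjusted p = 0.014), and was 0.30 without the 3 sham arrays with Y-linked transcripts. The heart signals before any processing were 119, 97, 96.9 and 117 after TAB in CHIP-/-, against 231.2 to 271.6 after sham in CHIP-/-. In wild type they were 220.5 to 322.4 after TAB, against 146.6 to 218.6 after sham. These groups did not overlap before normalization either. With each array centred on its median in place of loess, the rise in wild type was 0.43, the value that moved by over 1.5 times.

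**Figure D1:**
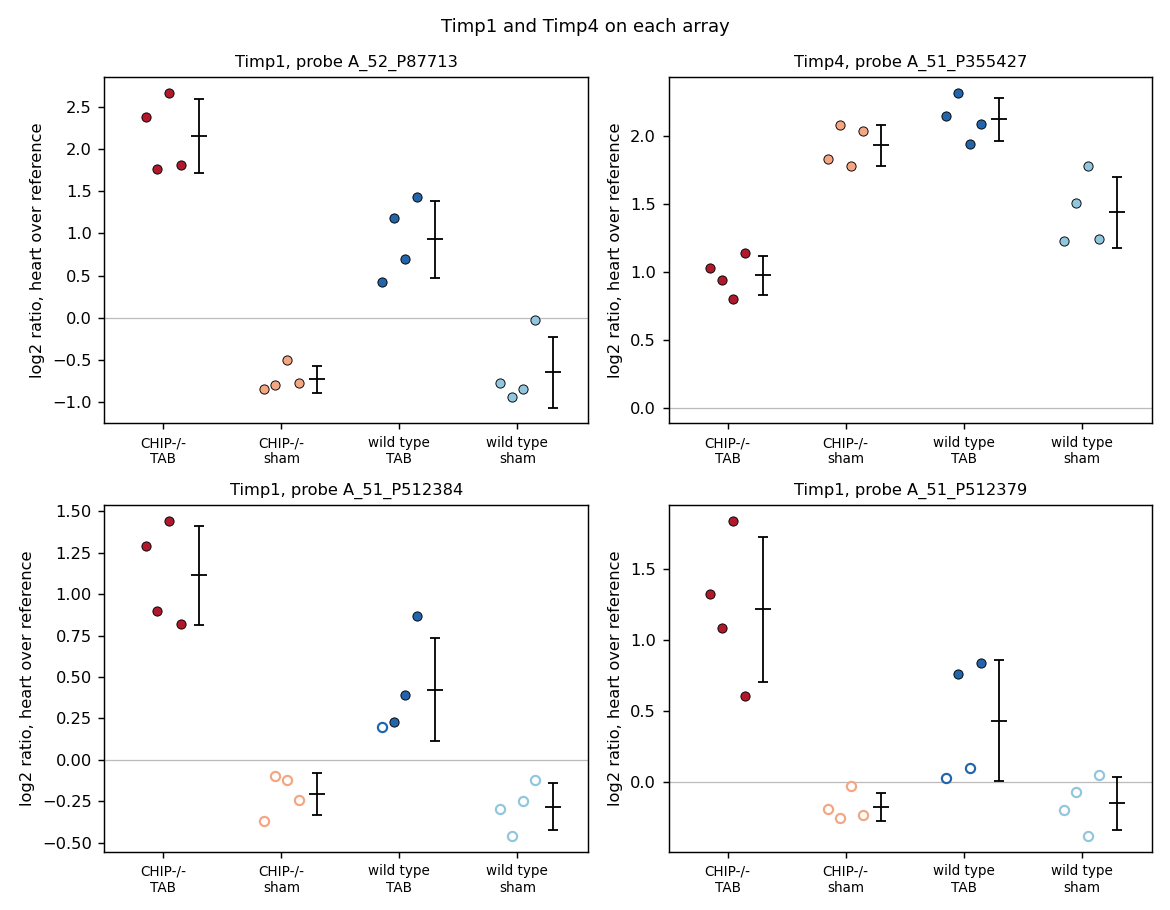
Log2 ratio of heart over reference for the 3 Timp1 probes and the Timp4 probe on each array, by group. Filled points were well above background in the heart channel, open points were not, and bars give the mean and SD over 4 arrays. All 4 CHIP-/- TAB arrays are the highest for Timp1 probe A_52_P87713 (1.77 to 2.67) and the lowest for Timp4 (0.80 to 1.14).

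Set against each other on the same array, Timp1 (A_52_P87713) minus Timp4 was 1.35, 0.83, 1.88 and 0.67 after TAB in CHIP-/-, against -2.68, -2.87, -2.28 and -2.82 after sham in CHIP-/-. In wild type the difference was -1.73, -1.14, -1.25 and -0.66 after TAB, against -2.02, -2.45, -2.63 and -1.28 after sham. Its absolute value has no meaning, since each probe has its own scale, but its change shows whether the transcripts changed by unequal amounts. The group means were 1.18 ± 0.55 in CHIP-/- TAB, -2.66 ± 0.27 in CHIP-/- sham, -1.20 ± 0.44 in wild-type TAB and -2.09 ± 0.60 in wild-type sham (SD, n = 4 each). In CHIP-/- the change with TAB was 3.84 (exact permutation test, two-sided, p = 0.0286, the smallest that 70 arrangements can give), and the groups did not overlap. In wild type it was 0.90 (exact permutation test, p = 0.0571), and wild-type sham replicate 4, at -1.28, overlapped with the TAB arrays. The change in CHIP-/- exceeded that in wild type by 2.95 (exact permutation test within TAB and within sham, 4900 arrangements, p = 0.00163). Genotype labels were shuffled within each surgery. This p is thus exact for no genotype difference after either surgery, and not for equal responses alone.

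The dimmer Timp1 probes gave a contrast of the same sign between genotypes and a different value in wild type. These probes passed the filter only through TAB arrays, where they were high, so their values are descriptions. With A_51_P512384 in place of the bright probe the change was 2.28 in CHIP-/- and 0.02 in wild type, and with A_51_P512379 it was 2.35 and -0.10. The differences between genotypes were 2.26 and 2.45 (exact permutation test, p = 0.00122 each). In wild type, where Timp1 and Timp4 both rose, the value thus depended on the Timp1 probe. With the bright probe and without the 3 sham arrays with Y-linked transcripts the CHIP-/- change was 3.66 (exact permutation test, p = 0.0667, the smallest that 15 arrangements can give). The difference between genotypes was then 2.49 (exact permutation test, 700 arrangements, p = 0.01).

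**Figure D2:**
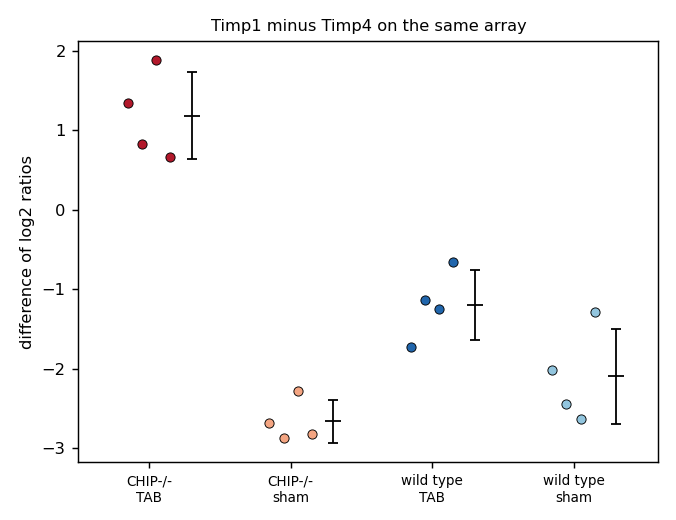
Timp1 (A_52_P87713) minus Timp4 on the same array, as a difference of log2 ratios, by group, with the mean and SD over 4 arrays. Its position on the axis is set by the probes and only differences between groups can be read. The CHIP-/- TAB arrays (0.67 to 1.88) stand apart from the other 12 arrays (-2.87 to -0.66).

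Timp3 encodes an inhibitor that binds to the matrix and also blocks ADAM and ADAMTS proteases. It had ratios of 0.16, 0.29, 0.04 and 0.00 after TAB in CHIP-/-, against 0.34, 0.62, 0.58 and 0.54 after sham in CHIP-/-. In wild type it had 0.57, 0.93, 0.39 and 0.57 after TAB, against 0.03, 0.57, 0.43 and 0.28 after sham. It fell by 0.40 in CHIP-/- (SE 0.11, adjusted p = 0.0037), where the groups did not overlap, and was lower than in wild type after TAB by a log2 difference of -0.49 (SE 0.11, adjusted p = 0.0036). Timp3 rose by 0.28 in wild type (SE 0.11, adjusted p = 0.041), with overlapping groups. That rise ended without wild-type TAB replicate 2 or 4 or wild-type sham replicate 1 or 4 (0.18 to 0.30), with the Feature Extraction log ratio (0.24) and without the sham arrays with high Myl7 (0.18) or with Y-linked transcripts (0.27). It was not called either with no filter on dim probes, with no intensity trend or with array quality weights (0.25 to 0.28). It turned to -0.07 with median centring (adjusted p = 0.71). The interaction was -0.68 (SE 0.15, adjusted p = 0.01) and stayed between -0.76 and -0.57 without each array in turn. Without the 3 sham arrays with Y-linked transcripts it was -0.60 (adjusted p = 0.135) and the fall in CHIP-/- was -0.34 (adjusted p = 0.064), neither of them called. With median centring the fall was -0.84 (adjusted p = 6.05e-07).

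Timp2 encodes the inhibitor that links Mmp14 to the precursor of Mmp2 at the cell surface. Its ratios were -1.0, -1.15, -0.98 and -1.04 after TAB in CHIP-/-, against -1.51, -1.33 and -1.66 after sham in CHIP-/-, where the spot of replicate 1 carried an outlier mark and the fit dropped it. In wild type they were -1.50, -1.11, -1.38 and -1.40 after TAB, against -1.39, -1.35, -1.11 and -1.30 after sham. Timp2 rose by 0.46 in CHIP-/- (SE 0.09, adjusted p = 0.00018), but with median centring the value was -0.10 (adjusted p = 0.61). The heart signals did not show a rise before normalization, with 1060 to 1580 after TAB in CHIP-/-, against 1511.1 to 1891.3 after sham in CHIP-/-. Without the 3 sham arrays with Y-linked transcripts the rise was 0.29 (adjusted p = 0.084). In wild type the difference was -0.06 (adjusted p = 0.60), and -0.51 (adjusted p = 0.0042) with median centring. The genotypes differed after TAB by 0.30 (SE 0.08, adjusted p = 0.019) and the interaction was 0.52 (SE 0.12, adjusted p = 0.014). The difference after TAB was lost without CHIP-/- TAB replicate 1 or 3 or wild-type TAB replicate 1 or 3, at 0.25 to 0.29. It was also lost with the Feature Extraction log ratio (0.30, adjusted p = 0.056) and with median centring (0.27, adjusted p = 0.47). The interaction was 0.44 to 0.61 without each array in turn, with adjusted p up to 0.0487. It was 0.40 with median centring (adjusted p = 0.598) and 0.36 without the sham arrays with Y-linked transcripts (adjusted p = 0.35).

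Among the proteases, Mmp14 encodes a membrane-bound collagenase that activates the Mmp2 precursor. Its bright probe (A_51_P216303) had ratios of -0.92, -1.45, -0.53 and -1.21 after TAB in CHIP-/-, against -2.26, -2.53, -2.51 and -2.80 after sham in CHIP-/-. Wild-type ventricles had -2.20, -1.65, -1.83 and -1.49 after TAB, against -2.61, -2.53, -2.46 and -1.88 after sham. Every CHIP-/- TAB array was above the other 12 arrays. Mmp14 rose by 1.49 in CHIP-/- (SE 0.17, 2.82-fold, adjusted p = 1.6e-07) and by 0.58 in wild type (SE 0.17, adjusted p = 0.011), where the groups overlapped. The wild-type call ended with median centring (0.26) and without the 3 sham arrays with high Myl7 (0.41). After TAB, CHIP-/- exceeded wild type by 0.76 (SE 0.17, adjusted p = 0.0048). The interaction was 0.91 (SE 0.24, adjusted p = 0.029). It ended without any one of 8 arrays, at 0.75 to 0.92 (adjusted p = 0.051 to 0.076). These were CHIP-/- TAB replicates 1 and 3, CHIP-/- sham replicates 2, 3 and 4, wild-type TAB replicates 1 and 3, and wild-type sham replicate 4. It also ended with the Feature Extraction log ratio (1.07, adjusted p = 0.0545), without a trend of the variance on intensity (adjusted p = 0.0698) and without the sham arrays with Y-linked transcripts (0.61, adjusted p = 0.307). The dim Mmp14 probe was not well above background on any array and had group means between -0.51 and -0.33.

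Mmp2, a gelatinase that fibroblasts secrete as an inactive precursor, had small differences. Its ratios were -0.51, -0.08, -0.44 and -0.29 after TAB in CHIP-/-, against -0.46, -0.95, -0.47 and -0.85 after sham in CHIP-/-. In wild type they were -0.65, -0.47, -0.56 and -0.34 after TAB, against -0.66, -0.67, -0.63 and -0.19 after sham. The groups overlapped in both genotypes. The difference of 0.35 in CHIP-/- (SE 0.12, adjusted p = 0.02) passed. It did not pass without CHIP-/- TAB replicate 2 or CHIP-/- sham replicate 2 or 4 (0.26 to 0.30) or with the Feature Extraction log ratio (0.41, adjusted p = 0.058), and it was 0.04 with median centring and 0.13 without the sham arrays with Y-linked transcripts. In wild type the difference was 0.04 (adjusted p = 0.84).

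Mmp3 encodes stromelysin, which cleaves many matrix proteins and activates other metalloproteinase precursors. Its probe was well above background on all 4 CHIP-/- TAB arrays and on 1 array of each other group. It thus passed the filter only through the CHIP-/- TAB arrays, where it was brightest, and its difference there is a description. The ratios were 1.61, 0.84, 1.45 and 0.69 after TAB in CHIP-/-, against 0.75, 0.26, 0.46 and 0.12 after sham in CHIP-/-, with an overlap. In wild type they were 0.46, 1.43, 0.26 and 0.41 after TAB, against 0.49, 0.11, 0.22 and 0.52 after sham. The difference in CHIP-/- was 0.75 (SE 0.22, adjusted p = 0.0065), and 0.54 (adjusted p = 0.128) without the 3 sham arrays with Y-linked transcripts. With 3 of 4 sham arrays not well above background its size is uncertain, and with the deposited Feature Extraction log ratio it was 2.67 (adjusted p = 0.028). The wild-type difference of 0.30 did not pass (adjusted p = 0.298). The genotypes differed after TAB by 0.51 (adjusted p = 0.15), and by 0.77 (adjusted p = 0.0096) without wild-type TAB replicate 2, the one high wild-type array. The reference channel was well above background on 1 array only, so the ratio rests on a dim reference. Mmp9, a gelatinase stored in neutrophils, was not well above background on any array with either probe, and its group means lay between -1.57 and -1.23.

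Adamts2 encodes the protease that removes the amino-terminal propeptide from fibrillar procollagens. Probe A_51_P227222 had ratios of 0.80, 0.59, 0.88 and 0.56 after TAB in CHIP-/-, against -0.79, -1.19, -0.95 and -1.15 after sham in CHIP-/-. In wild type it had -0.37, 0.30, -0.13 and 0.15 after TAB, against -0.65, -0.89, -0.90 and -0.32 after sham. It rose by 1.73 in CHIP-/- (SE 0.13, 3.31-fold, adjusted p = 3.1e-10) and by 0.68 in wild type (SE 0.13, 1.60-fold, adjusted p = 0.00027). Every CHIP-/- TAB array was above every wild-type TAB array, and the difference was 0.72 (SE 0.13, adjusted p = 0.00068). The interaction of 1.05 (SE 0.18, adjusted p = 0.0018) passed and kept its call without each array in turn (0.93 to 1.16, adjusted p = 0.00078 to 0.0065). Without the 3 sham arrays with Y-linked transcripts it was 0.78 (adjusted p = 0.049). With median centring the wild-type rise was 0.37 (adjusted p = 0.044).

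A dimmer Adamts2 probe, A_51_P164817, followed the first across the 16 arrays (r = 0.97). It had ratios of 0.77, 0.54, 0.97 and 0.62 after TAB in CHIP-/-, against -0.17, -0.72, -0.28 and -0.44 after sham in CHIP-/-. The wild-type ratios were -0.05, 0.71, 0.19 and 0.17 after TAB, against -0.27, -0.24, -0.29 and -0.09 after sham. It rose by 1.13 in CHIP-/- (SE 0.13, adjusted p = 3e-07) and by 0.47 in wild type (SE 0.13, adjusted p = 0.0083). With the deposited Feature Extraction log ratio these were 2.35 in CHIP-/- (adjusted p = 1.6e-05) and 0.82 in wild type (adjusted p = 0.0695). The wild-type value was 0.27 with median centring and 0.42 without the sham arrays with high Myl7, neither of them called. The interaction of 0.65 (SE 0.19) was called at the edge of the threshold (adjusted p = 0.0498). It was lost without any one of 13 arrays, all but CHIP-/- TAB replicate 2, CHIP-/- sham replicate 1 and wild-type TAB replicate 2, at 0.55 to 0.69. It was also lost with the Feature Extraction log ratio and the series table (1.53 in each), with median centring (0.54), without the sham arrays with high Myl7 (0.79) or with Y-linked transcripts (0.43), and in 7 settings that moved the value little (0.63 to 0.65). The difference after TAB, 0.47 (adjusted p = 0.025), ended without CHIP-/- TAB replicate 1 or 3 or wild-type TAB replicate 1, 3 or 4, at 0.37 to 0.46, and with the Feature Extraction log ratio (0.82, adjusted p = 0.145). The other Adamts2 probes, A_52_P510592 and A_52_P184042, were not well above background on any array and had group means between -0.13 and 0.16.

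Adamts1 encodes a protease that cleaves the proteoglycans versican and aggrecan. As for Adamts2, its bright probe rose with TAB in both genotypes, but no interaction was called. Its bright probe (A_52_P489295) had ratios of 0.18, -0.31, 0.24 and -0.09 after TAB in CHIP-/-, against -0.65, -0.77, -0.86 and -0.65 after sham in CHIP-/-. The wild-type ratios were 0.17, 0.30, -0.04 and 0.31 after TAB, against -0.81, -0.52, -0.67 and -0.37 after sham. The TAB arrays lay above the sham arrays in both genotypes. Adamts1 rose by 0.74 in CHIP-/- (SE 0.11, adjusted p = 4.8e-06) and by 0.78 in wild type (SE 0.11, adjusted p = 5.9e-06), with an interaction of -0.04 (SE 0.15, adjusted p = 0.94). With median centring these rises were 0.35 and 0.46, both still called. The dimmer probe (A_52_P213932), well above background on 6 of 16 arrays, did not pass in either genotype (0.16 in CHIP-/- and 0.08 in wild type).

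**Figure D3:**
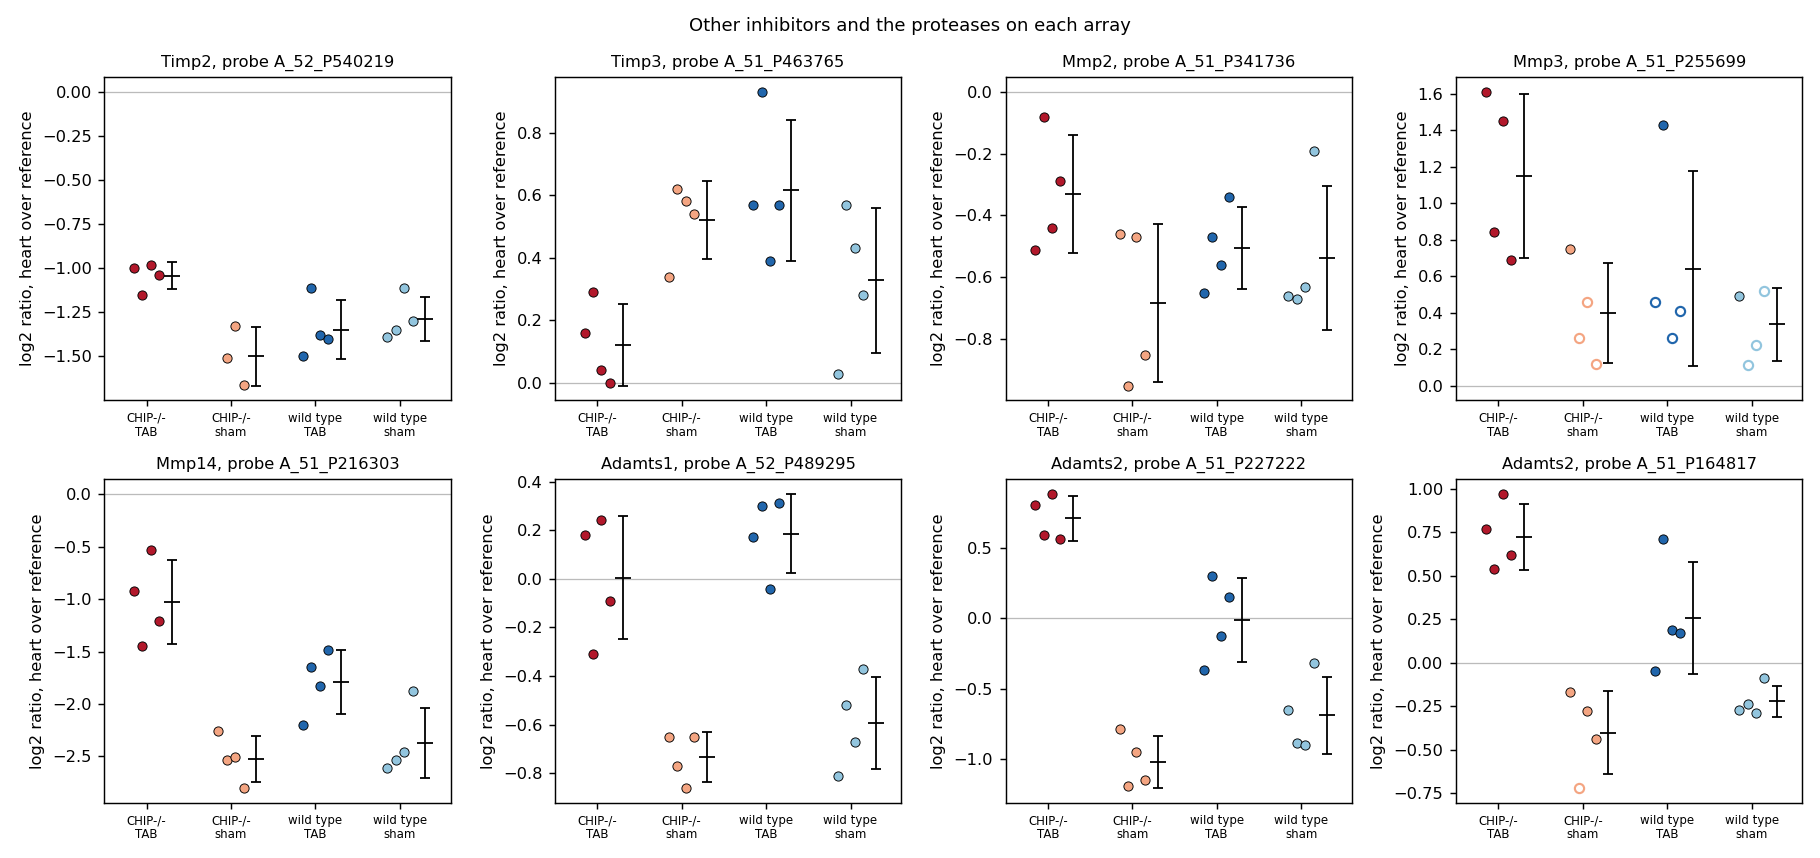
Log2 ratio of heart over reference on each array for Timp2, Timp3 and the proteases with a probe past the filter (2 probes of Adamts2), by group. Filled points were well above background in the heart channel, open points were not, and bars give the mean and SD. For Mmp14 and Adamts2 probe A_51_P227222 the CHIP-/- TAB arrays are the highest 4, while for Adamts1 the TAB arrays of both genotypes overlap. Timp2 has 3 values in CHIP-/- sham, and its rise in CHIP-/- turned to -0.10 with median centring.

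Counted over the 13 probes past the filter, 10 rose and 2 fell with TAB in CHIP-/-, where 44% of all probes tested were called (21.3% upward and 22.7% downward). In wild type 9 rose and 0 fell by limma (0 also at an unadjusted p under 0.05), where 33.4% of all probes were called (16.3% upward and 17.1% downward). The 10 that rose were from 7 genes and the 9 from 6 genes, since Timp1 and Adamts2 have several probes. Of the 10, Mmp3 and the dimmer Timp1 probes passed the filter only through TAB arrays, where they were high, so these counts are descriptions. With a filter of at least 8 arrays well above background 9 probes were left, of which 7 rose and 2 fell in CHIP-/-, and 7 rose and 0 fell in wild type. The median log2 difference of the 13 was 0.75 in CHIP-/- and 0.58 in wild type, beside -0.02 and -0.01 over all probes. These counts depend on the sham arrays used and on scaling. Without the 3 sham arrays with Y-linked transcripts 7 rose and 1 fell in CHIP-/-, and 8 rose and 0 fell in wild type. Without the 3 sham arrays with high Myl7 10 rose and 2 fell in CHIP-/-, and 5 rose and 0 fell in wild type. With median centring 8 member probes rose and 2 fell in CHIP-/-, and 6 rose and 1 (Timp2) fell in wild type. Of the calls of all probes 11.4% were then upward in CHIP-/-, against 48.4% with loess. In wild type 7.88% were upward, against 48.8% with loess. The median of all probes then shifted to -0.21 in CHIP-/- and -0.18 in wild type.

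After TAB, 7 member probes were higher and 2 lower in CHIP-/- than in wild type, where 9.91% of all probes were called (4.43% upward and 5.48% downward). The probes higher in CHIP-/- were the 3 of Timp1, the 2 measured ones of Adamts2, Mmp14 and Timp2, and the lower ones were Timp3 and Timp4. The dimmer Timp1 probes passed the filter only through TAB arrays, so this count is a description too. The median was 0.47, against -0.01 over all probes. After sham 0 of the 13 were called by limma, where 0.0341% of all probes were called (0.0136% upward and 0.0204% downward). At an unadjusted p under 0.05 there were 3 (Timp2, Timp4 and Adamts2 probe A_51_P227222), and among the other settings Timp4 was called with median centring and without wild-type sham replicate 3. The interaction was called for 7 probes, 5 upward (Timp1, Timp2, Mmp14 and the 2 measured ones of Adamts2) and 2 downward (Timp3 and Timp4), where 4.37% of all probes were called (2.32% upward and 2.05% downward). That count was 5 to 8 without each array in turn and 2 without the sham arrays with Y-linked transcripts. In CHIP-/- the TAB arrays of 9 probes lay above all sham arrays and those of 2 below, beside 19.4% and 20.3% of all probes. In wild type 5 lay above and 0 below, beside 14.6% and 15.4%. Between genotypes 3 lay above and 2 below after TAB, beside 5.59% and 6.29%, and 1 (Timp4) above and 0 below after sham, beside 1.99% and 3.11%. The comparisons share groups, so their counts are not independent of each other.

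**Figure D4:**
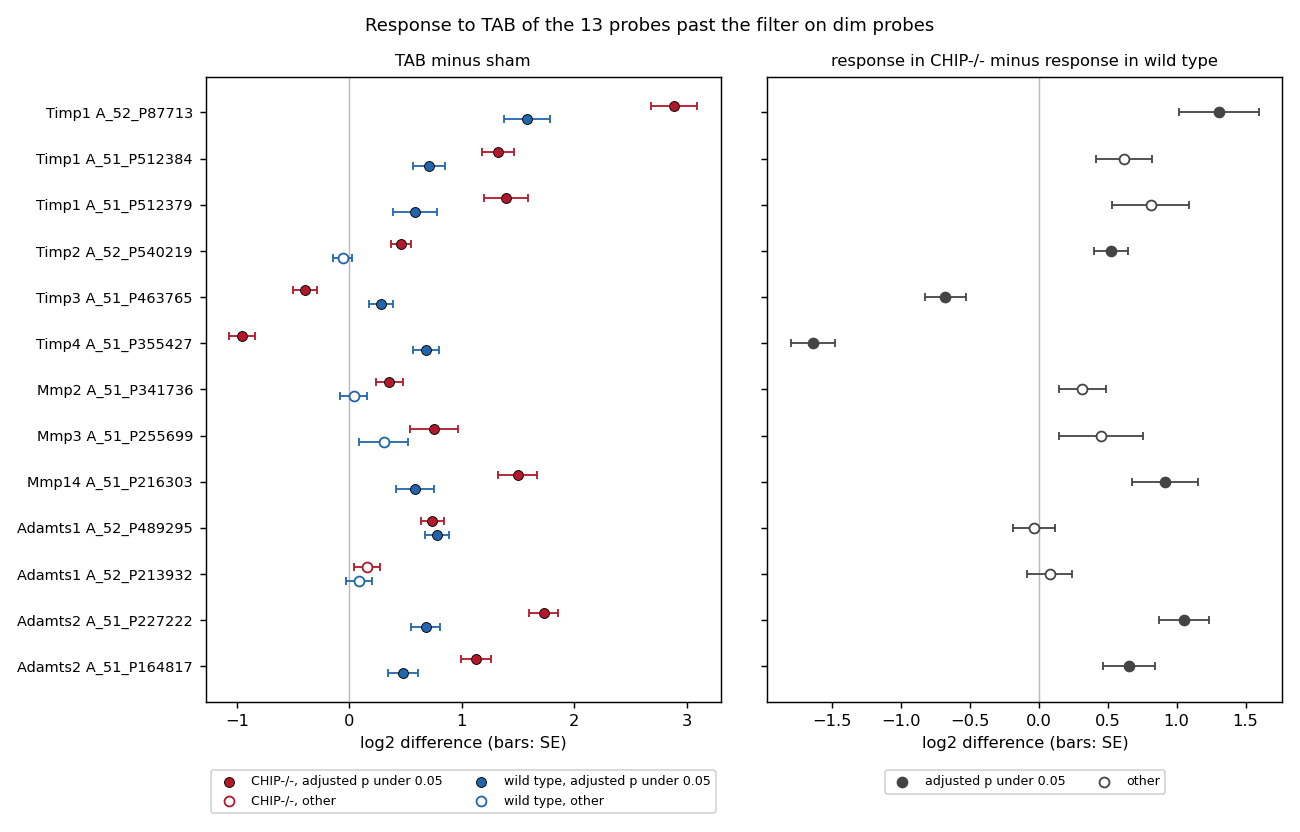
Log2 difference between TAB and sham in CHIP-/- and in wild type (left) and the interaction, CHIP-/- response minus wild-type response (right), for the 13 probes past the filter, with SE. Filled points had an adjusted p under 0.05. Timp4 lies at -0.96 in CHIP-/- and 0.68 in wild type, and both Adamts1 probes have interactions near 0 (-0.04 and 0.08). Timp2's value of 0.46 in CHIP-/- turned to -0.10 with median centring.

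Other genes of the system were grouped by role. Each gene stands here by its brightest probe. The counts of all these lists stand beside 21.3% of all probes called upward and 22.7% downward with TAB in CHIP-/-. In wild type these shares were 16.3% and 17.1%. The median differences with TAB were 0.03 in CHIP-/- and 0.02 in wild type over the other Mmp genes and 0.26 and 0.13 over the other Adamts genes. They were 0.56 and 0.42 over the Adam genes, 0.30 and 0.11 over the activators, inhibitors, inducers and receptors, and 1.01 and 0.33 over the substrates. Of 19 other Mmp genes 4 passed the filter. Mmp15, a membrane-type metalloproteinase gene, fell by 0.52 in CHIP-/- and by 0.39 in wild type. Mmp23 rose by 0.48 in CHIP-/- (adjusted p = 0.00094) and had 0.09 in wild type, while Mmp11 and Mmp17 did not pass. Of 23 other Adamts and Adamts-like genes 8 passed the filter, 4 rose and 2 fell in CHIP-/-, and likewise in wild type. Adamts5, an aggrecanase gene, rose by 0.37 in CHIP-/- and by 0.43 in wild type. Adamts9 rose by 0.35 in CHIP-/- and by 0.47 in wild type. Adamts8 was at least 1.47-fold higher with TAB in CHIP-/- and at least 1.62-fold higher in wild type (adjusted p = 0.00087 and 2.6e-05). These are lower bounds, since it was not well above background on any sham array. Adamts8 thus passed the filter only through TAB arrays, where it was high. Its values, p values and place in the counts of this list are descriptions. Adamtsl4, a gene of an ADAMTS-like protein without a protease domain, was at least 1.47-fold lower with TAB in CHIP-/-, where no TAB array was well above background (adjusted p = 0.00025). It fell by 0.34 in wild type, where 5 single arrays (wild-type TAB replicates 3 and 4 and wild-type sham replicates 2, 3 and 4) each ended the call (-0.33 to -0.27). None of these 8 genes was called in the interaction, as for Adamts1, beside 4.37% of all probes. With median centring the rises of Adamts5 (0.10 in CHIP-/- and 0.19 in wild type), Adamts9 (0.11 and 0.25) and, in CHIP-/-, Adamts8 (0.22) were no longer called, and that of Mmp23 in CHIP-/- was 0.24 (adjusted p = 0.049). Adamts9 in CHIP-/- was not called with the Feature Extraction log ratio (0.50) or without the sham arrays with Y-linked transcripts (0.31). With the Feature Extraction log ratio Mmp23 had 1.06 in CHIP-/- and Adamtsl4 -1.53 in CHIP-/-, against -0.61 with normexp, both called, while Adamtsl4 in wild type had -0.59 and was not (adjusted p = 0.103). It was not called there without the sham arrays with Y-linked transcripts either (-0.33).

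Of 11 genes of membrane-bound ADAM proteases 5 passed the filter, 4 rose in CHIP-/- and 3 in wild type. Adam9 rose by 1.19 in CHIP-/- (SE 0.09, adjusted p = 8.3e-10) and by 0.42 in wild type (SE 0.09, adjusted p = 0.0015), with an interaction of 0.77 (adjusted p = 0.0018). Adam15 rose by 0.48 in CHIP-/- and by 0.71 in wild type, and was lower in CHIP-/- than in wild type after TAB by a log2 difference of -0.23 (adjusted p = 0.025). Adam8, a protease gene of leukocytes, rose by 0.91 in CHIP-/- and by 0.43 in wild type. With median centring Adam9 (0.13) and Adam8 (0.21) in wild type and Adam15 in CHIP-/- (0.16) lost their calls. Adam8 in wild type also lost it without the sham arrays with high Myl7 (0.26). With the Feature Extraction log ratio Adam8 had 1.72 in CHIP-/- and 0.75 in wild type, both called.

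The list of activators, other inhibitors, inducers and receptors had 10 of 12 genes past the filter, with 6 up and 1 down in CHIP-/- and 4 up and 1 down in wild type. Plat, the tissue plasminogen activator gene, rose by 0.58 in CHIP-/- and by 0.50 in wild type, and its second probe by 0.32 in CHIP-/-, with 0.24 in wild type (adjusted p = 0.12). With median centring the first Plat probe had 0.25 in both genotypes and was not called. Cd63, whose protein is a known cell-surface partner of TIMP-1, rose by 0.47 in CHIP-/- (adjusted p = 8.7e-07) and by 0.17 in wild type (adjusted p = 0.032), with an interaction of 0.30 (adjusted p = 0.045). The wild-type call ended without wild-type TAB replicate 2 or 4 or wild-type sham replicate 1 or 3 (0.12 to 0.17), with the Feature Extraction log ratio (0.14) and without the sham arrays with high Myl7 (0.098). With median centring Cd63 turned to -0.026 in CHIP-/- and -0.23 in wild type. Bsg, which encodes an inducer of metalloproteinases, fell by 0.32 in CHIP-/- and by 0.45 in wild type, and with median centring by 0.64 and 0.71.

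Among 8 substrate genes 7 passed the filter, 6 rose in CHIP-/- and 6 in wild type. Col3a1, a fibrillar collagen gene, rose by 3.29 in CHIP-/- (SE 0.22) and by 1.22 in wild type (SE 0.22), with an interaction of 2.07 (SE 0.31, adjusted p = 0.00069). Col1a1 and Col1a2, which encode the chains of type I collagen, rose by 1.95 and 1.39 in CHIP-/- and by 0.70 and 0.33 in wild type, with interactions of 1.25 and 1.05. The second Col1a1 probe rose by 0.87 in CHIP-/- and had 0.14 in wild type. Fn1, the fibronectin gene, rose by 1.01 in CHIP-/- and by 0.27 in wild type, and its second probe had 0.17 and 0.12, neither of them called. The wild-type values of Col1a2 and Fn1 turned to -0.23 and -0.016 with median centring. Leaving out wild-type TAB replicate 2 or 4 or wild-type sham replicate 1 ended the wild-type call of Col1a2 (0.24 to 0.27). That of Fn1 ended without the same arrays or wild-type sham replicate 3, at 0.20 to 0.25. With the Feature Extraction log ratio neither was called (0.27 and 0.31). With median centring Col1a1 in wild type had 0.21 and was not called, Col3a1 in wild type had 0.77, and in CHIP-/- Col1a2 and Fn1 each had 0.66, these 3 called. Without the sham arrays with high Myl7 the wild-type values were 0.20 for Col1a2 and 0.13 for Fn1, neither of them called.

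Markers of other cell types moved with the same comparisons, and their part in the results was not tested. Their counts stand beside 21.3% of all probes called upward and 22.7% downward with TAB in CHIP-/-. In wild type these shares were 16.3% and 17.1%. In bulk ventricle, more cells of a type and more RNA per cell cannot be told apart. The mean ratio of 8 fibroblast markers was -0.42 to -0.22 after TAB in CHIP-/-, against -1.44 to -1.02 after sham in CHIP-/-. In wild type it was -0.89 to -0.50 after TAB, against -1.26 to -1.03 after sham. Of these 8 markers 6 rose in CHIP-/- and 5 in wild type. They include Col1a1 and Col1a2, on the same probes that stand among the substrates above. The mean of 8 macrophage markers was 0.55 to 0.78 after TAB in CHIP-/-, against -0.26 to -0.11 after sham in CHIP-/-. In wild type it was 0.20 to 0.35 after TAB, against -0.14 to 0.00 after sham. All 8 rose in CHIP-/- and 5 in wild type. Of 9 cardiomyocyte markers 7 fell and 1 rose in CHIP-/-, and 6 fell in wild type. The mean of the smooth muscle and pericyte markers was 0.11 to 0.29 after TAB in CHIP-/-, against -0.39 to -0.35 after sham in CHIP-/-. For wild type these means were 0.16 to 0.33 after TAB, against -0.29 to -0.22 after sham. Of 6 smooth muscle and pericyte markers 5 rose in each genotype, and of 7 endothelial markers 3 rose and 1 fell in CHIP-/-, and 4 rose and 1 fell in wild type. Of 6 neutrophil markers only 2 passed the filter, S100a9 and Mpo, and both rose in CHIP-/- and 1 in wild type. S100a8, Csf3r, Ly6g and Elane did not pass it, and no lymphocyte marker did. After TAB, CHIP-/- was above wild type for 4 of 8 macrophage, 3 of 8 fibroblast and 1 of 2 neutrophil markers. It was below wild type for 5 of 9 cardiomyocyte markers, where 1 was above, and for 1 of 7 endothelial and 1 of 6 smooth muscle and pericyte markers. Of all probes 4.43% were called above and 5.48% below wild type after TAB.

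The genes whose pattern was most like that of Timp1 probe A_52_P87713 across the 16 arrays, among 13267 probes with a symbol and every value, were Rgs10, Lgals1, Igf1, Ctss and Itgb1. Their correlations with it ran from 0.986 to 0.991. Rgs10 encodes a regulator of G-protein signalling, Lgals1 galectin-1, Igf1 a growth factor, Ctss the lysosomal protease cathepsin S and Itgb1 an integrin chain. Their differences between TAB and sham were 1.35, 1.85, 1.14, 2.06 and 1.32 in CHIP-/-, against 0.75, 0.91, 0.62, 1.06 and 0.57 in wild type. For Timp4 the closest were Ppp1r12c, Tacc2, Tmem144, Ercc1 and Tctn3, at 0.873 to 0.925. Tacc2 had -0.71 with TAB in CHIP-/- and 0.58 in wild type, and the other 4 had smaller differences of the same signs. Among the members, Timp1 correlated at 0.97 with Adamts2 (A_51_P227222) and at 0.96 with Mmp14, and Timp4 at 0.85 with Timp3 and at -0.47 with Timp1. All of these are descriptions over 16 arrays that share 4 group means.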

How the data were processed

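RNA of 16 ventricles (Cy5) and a common reference RNA (Cy3) were hybridised to 2-colour Agilent arrays, all in one dye orientation. Per the file headers, Feature Extraction 9.1.3.1 gave for each spot mean and local background intensities, quality flags (the deposited value of the other kind, 0 or 1) and a background-subtracted, dye-normalized log10 ratio. The deposited series-wide file holds log2 ratios of 14322 probes, centred on each probe (correlation with the scanner ratios at least 0.998, column medians -0.034 to 0.03). The sources used here do not say by what rule those probes entered it. The mean intensities deposited for the 4 CHIP-/- TAB arrays carry 3 significant digits.

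The intensities were corrected with normexp (offset 50) and normalized by loess within each array with limma 3.58.1 in R 4.3.3, control spots having weight 0. Outlier-marked spots were left out, saturated ones kept, and spots of one probe averaged. Probes were tested if well above background in the heart on at least 4 of 16 arrays with a value on at least 15. A single model with a mean for each group and a variance trend on each probe's mean log2 intensity served all 5 comparisons, and an adjusted p under 0.05 is a call. Precision is limited by how many arrays there are. The labels call the 4 arrays of a group biological replicates. Timp1 minus Timp4 was compared by two-sided exact permutation tests over arrays. The procedure was tested on simulated data. Probes of one gene were kept apart. The members and lists were chosen with earlier results of these data known. All member probes are described, and of each other list the 4 genes with the smallest p in a TAB comparison could be named. A gene of the other lists is not reported here by name. Alternatives changed background correction, normalization, filter, model, arrays and source of the ratios. The replicate numbers were not taken to pair the arrays. Deviations of the 24 pairs of equal number correlated at -0.175 to 0.155 (median -0.0066), with 4 above 0.1. Those of the 72 pairs of unequal number correlated at -0.146 to 0.228 (median 0.00071), with 4 above 0.1.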

Additional observations from a re-analysis of the deposited data

Results flagged for a closer look

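For 5 values, 1 array lay far from the other 3 of its group, by Dixon's test at the 95% level. Chance gives about 1 in 20 groups, and 71 groups were examined. These were Timp1 probe A_52_P87713 at -0.03 and Mmp2 at -0.19, both on wild-type sham replicate 4, which is also an array with Y-linked transcripts. Mmp3 had 1.43 on wild-type TAB replicate 2, the array without which its difference between genotypes after TAB passed the threshold. That difference is a description, since Mmp3 passed the filter only through the CHIP-/- TAB arrays. The other values were of probes not well above background on any array: Mmp9 A_52_P507214 at -1.63 on CHIP-/- sham replicate 2 and Adamts2 A_52_P510592 at 0.33 on CHIP-/- sham replicate 4.

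The TAB response differed between CHIP-/- and wild type by limma's interaction term for 13 of the probes named. It was higher in CHIP-/- for Timp1 A_52_P87713 (1.31), Timp2 (0.52), Mmp14 (0.91), Adamts2 A_51_P227222 (1.05) and A_51_P164817 (0.65), Adam9 (0.77), Cd63 (0.30), Col3a1 (2.07), Col1a1 (1.25), Col1a2 (1.05) and Fn1 (0.74). It was lower for Timp4 (-1.64) and Timp3 (-0.68). The change of Timp1 minus Timp4 differed by 2.95 between the genotypes, in an exact permutation test that shuffled genotype within each surgery. The slides, each holding 1 group, cannot be told apart from these differences.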

How the results depend on the processing

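Timp1 (A_52_P87713), Timp4, Adamts1 (A_52_P489295) and, in CHIP-/-, Mmp14 and both measured Adamts2 probes kept their TAB calls in every setting run. Over the 13 probes, 5 comparisons and all settings, 1975 of 2082 results kept their side of the threshold, 97 lost the call, 8 gained one and 2 reversed. A change of sign was counted as reversed only where the value was called with the main processing or in that setting. Values not called could change sign within the 1975. Mmp2 with TAB in wild type, at 0.037, went down to -0.018 without single arrays in turn. All reversals came with median centring: Timp2 in CHIP-/- to -0.10, Timp3 in wild type to -0.071, Cd63 to -0.026 in CHIP-/- and -0.23 in wild type, and in wild type Col1a2 to -0.23 and Fn1 to -0.016, where the median of all probes shifted to -0.21 in CHIP-/- and -0.18 in wild type. The cause was not tested.

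The count of member probes called in the interaction (7) was 4 with the deposited Feature Extraction log ratio, 4 with the series table and 2 without the 3 sham arrays with Y-linked transcripts. The count between genotypes after TAB (9) was 5 with the Feature Extraction log ratio. With TAB in CHIP-/-, 10 member probes rose and 2 fell, but 7 rose and 1 fell without the 3 sham arrays with Y-linked transcripts. The count with TAB in wild type (9) was 5 without the 3 sham arrays with high Myl7. The count after sham (0) was 1 with median centring. Without each array in turn the counts were 11 to 12 with TAB in CHIP-/-, 7 to 9 with TAB in wild type, 6 to 10 after TAB, 0 to 1 after sham (Timp4, without wild-type sham replicate 3) and 5 to 8 in the interaction.

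Over all probes, the interaction count (641) was 197 with median centring, 390 with no intensity trend, 368 with a trend on the mean log ratio in place of intensity and 110 without the arrays with Y-linked transcripts. It was 371 without CHIP-/- TAB replicate 3, 410 without CHIP-/- sham replicate 2 and 379 without wild-type sham replicate 4. The count after TAB (1455) was 501 with median centring, 905 without CHIP-/- TAB replicate 3 and 968 without wild-type TAB replicate 1. The count with TAB in wild type (4905) was 3067 without the high Myl7 arrays. The count after sham (5) lay between 2 and 47.

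Timp1 minus Timp4 changed with TAB by 3.61 to 4.02 in CHIP-/- and 0.72 to 1.17 in wild type without each array in turn, and the difference was 2.67 to 3.13. With the replicate block the change in CHIP-/- was 3.84 and the difference 2.95, each with an exact p of 0.125, the smallest that the 16 arrangements allow. Without the arrays with Y-linked transcripts the change in CHIP-/- was 3.66 (exact permutation p = 0.0667, the smallest of 15 arrangements). The difference between genotypes was then 2.49 (exact permutation p = 0.01). The replicate block ended the interaction call of Adamts2 A_51_P164817, and the numbers are not known to mark a shared day or litter. The trend on the mean log ratio and rounding all signals to 3 significant digits were alternatives chosen after seeing the data. The slide as a block was not run, since each slide holds 1 group. Dim signals limit the Timp1 probes A_51_P512384 and A_51_P512379, Mmp3 and the 5 probes not well above background.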
